A study of Mus musculus with 14 samples.

Results

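The genes described here are the expressed members of the Zfp series, the mouse genes whose symbol is Zfp followed by a number and, for some, 1 letter. A gene was taken in when its reads summed to 100 or more over the 4 RNA-seq libraries, and Zfp42 was left out. Of 25131 rows of the count table, 391 carry such a symbol, and 167 met the minimum; 223 others did not. All 167 entered the test across 10241 genes. The genes were thus selected on their total count, and not on the difference between knockout and wild type, except where a gene reached the minimum only through the group in which it was high. At the level of their lower group in all 4 libraries, 28 of the 167 would have missed the minimum. Of these, Zfp33b, Zfp777 and Zfp746 were called higher and Zfp981, Zfp809, Zfp951 and Zfp982 lower in the test below. Their calls are to be read as values of single genes, although they also stand in the counts below. Without these 28 of the 167, 6 genes called higher and 10 called lower remained. Of all genes tested, 10.4% were called higher and 9.3% lower. Just inside the minimum lay Zfp60 with 100 counts, Zfp941 with 100 and Zfp407 with 102, and just outside it Zfp182 with 99, Zfp345 with 98 and Zfp512b with 97.

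Most Zfp genes encode proteins with arrays of C2H2 zinc fingers, small folds held by a zinc ion that read DNA bases or, in some proteins, bind RNA. Many carry a KRAB domain at the amino end, which recruits the corepressor TRIM28; the histone methyltransferase SETDB1 then marks the site with H3K9 methylation, and in embryonic stem cells (ESCs) this silences retroelements and protects imprinted genes. KRAB zinc finger genes arose by repeated duplication and lie in clusters of near-identical copies, so that neighbours often resemble each other in sequence. The symbol is a name and not a class: other Zfp genes encode splicing, ribosome or ubiquitin factors, and many KRAB genes bear other symbols.

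The series asked which proteins gather at the promoter of Nanog and where one of them, the corepressor RCOR2 of the CoREST family, binds. RNA was sequenced from RCOR2 KO ESCs (2 libraries) and WT ESCs (2 libraries), and chromatin immunoprecipitation (ChIP) was done on ESCs that express HA-tagged RCOR2 (2 libraries, against 2 negative controls, 1 of WT cells and 1 of cells expressing mCherry). All were mouse ESCs of the C57BL/6 background, grown with serum, leukemia inhibitory factor and the kinase inhibitors PD0325901 and CHIR99021. The labels do not give the part of Rcor2 that was deleted, whether the KO line was 1 clone, or that the replicates came from different cultures; the spread that p-values rest on here is thus that of libraries, and it may be only technical.

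Depth was 2951498 and 1974865 counts in KO and 2368804 and 1286393 counts in WT. Rcor2 itself had 54.2 and 53.9 CPM (counts per 1000000 counts after scaling) in KO cells, against 81.4 and 81.5 CPM in WT cells (log2 fold change -0.59, standard error (SE) 0.23; adjusted p = 0.0636 in edgeR); without the deleted part this does not check the genotype. The 14 ESC markers summed to 5249 and 5224 CPM in KO cells and 5042 and 4791 CPM in WT cells, none of them at 0 in all libraries. The 9 primitive endoderm markers summed to 124 and 124 CPM in KO cells and 55.2 and 57.9 CPM in WT cells, with Foxa2 at 0 throughout; the 9 trophoblast markers summed to 208 and 218 CPM in KO cells and 129 and 178 CPM in WT cells, with none at 0 throughout. Of the markers that were tested, 4 of 14 for ESCs were called higher in KO and 1 lower, 2 of 3 for primitive endoderm were higher, and of 5 for trophoblast 4 were higher and 1 lower, where 10.4% of all genes were higher and 9.3% lower. The 10 fibroblast markers summed to 14.1 to 21.4 CPM in KO cells and 19.4 to 35.0 CPM in WT cells, and 11 markers of two-cell-like cells to at most 1.05 CPM in KO cells and 6.74 CPM in WT cells, with Tcstv3, Zfp352 and Dux at 0 throughout. The part of these markers' cells in the results below was not tested, and in bulk RNA fewer cells of a type and less RNA per cell cannot be told apart.

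Most expressed Zfp genes differed little between KO and WT cells, and more of them lay below 0 than among all genes. The median log2 fold change, KO over WT, was -0.17 over the 167 genes and -0.02 over all genes tested; 104 of the 167 (62.3%) were below 0, against 51.0% of all genes. In edgeR's quasi-likelihood test, at an adjusted p under 0.05 as for every call below, 9 of the 167 were higher in KO (5.39%) where 10.4% of all genes were, and 14 were lower in KO (8.38%) where 9.3% of all genes were. The share called higher was thus below the background and the share called lower near it. Values ran from -3.55 to 1.68, 150 genes were under 1 in size, and the smallest called change was 0.59.

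The libraries themselves showed the same tilt. Both KO libraries were below both WT libraries for 58 of the 167 genes (34.7%, against 28.8% of all genes), and both were above for 33 (19.8%, against 28.1%). Summed over the 167 genes, the level was 7274 and 7086 CPM in KO cells and 7536 and 7867 CPM in WT cells. The genes held 100 to 3290 counts in all with a median of 225, 75 had under 200 counts, and the median SE was 0.35; over all genes tested the median count was 256 and the median SE 0.34. Without KO replicate 1, 2 of the 167 were called higher and 9 lower; without KO replicate 2, 7 and 6; without WT replicate 1, 5 and 12; and without WT replicate 2, 6 and 8. The share of all genes called without a single library is not given here, so these drops cannot be set against it. DESeq2 called 3 higher (6.35% of all genes) and 8 lower (4.94% of all genes).

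Most of the calls of a higher level lay on chromosomes whose genes were shifted as a whole. The plot of Zfp genes by chromosome sets each gene beside the median of all genes tested on its chromosome. All genes of chromosome 6 had a median log2 fold change of 0.92, those of chromosome 8 of 0.52 and those of chromosome 3 of 0.48, while those of chromosome 11 were at -0.49; the cause of these shifts was not tested. The 28 Zfp genes there had medians on the same side: the 8 on chromosome 6 had a median of 0.89, the 10 on chromosome 8 of 0.49, the 3 on chromosome 3 of 0.53 and the 7 on chromosome 11 of -0.24. All 8 on chromosome 6 were above 0, and 5 of them were called higher, where 56.2% of all genes tested on that chromosome were. Off these chromosomes, 2 of 139 Zfp genes were higher (1.44%, against 5.96% of all genes) and 13 were lower (9.35%, against 8.12%), with a median of -0.24 against -0.05.

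**Figure D1:**
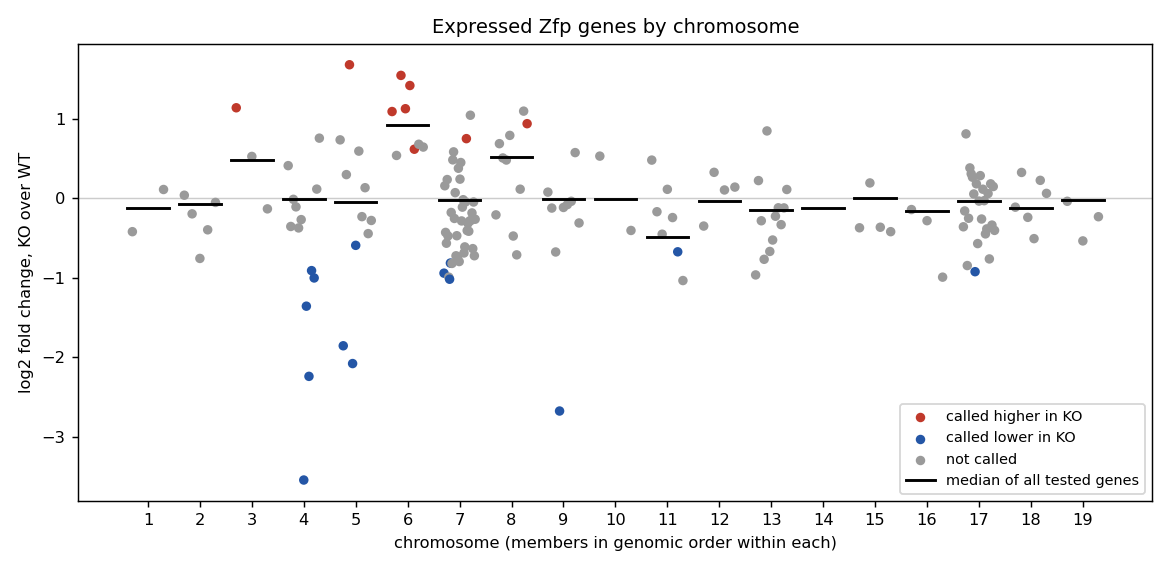
Log2 fold change, KO over WT, of the 167 expressed Zfp genes by chromosome (horizontal axis, in genomic order within each), with a bar at the median of all genes tested there. The genes of chromosome 6 all lie above 0, around a median of 0.92 for all its genes, and the most negative value, -3.55, is on chromosome 4.

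With each fold change centred on the median of its chromosome, 2 Zfp genes were called higher (1.2%, against 6.28% of all genes) and 13 lower (7.78%, against 6.69%). No Zfp gene of chromosome 3 or 6 was then called by edgeR. On chromosome 8, Zfp961 and Zfp827 were called lower only after centring, at -0.99 and -1.23 (edgeR adjusted p = 0.00243 and 0.0182), against -0.48 and -0.71 uncentred. ZFP827 is known in human cells for recruiting the NuRD complex to telomeres. Chromosome 7 held the most Zfp genes, 40 with a median of -0.29 against -0.02 for all its genes, followed by chromosome 17 with 25 and medians of -0.04 and -0.04. None lay on chromosome 14, X or Y. The 2 tested genes of chromosome Y were both called lower in KO, with a median of -6.02, and the cause was not tested.

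The lowest value of all, and 5 of the 14 called lower, lay at the distal end of chromosome 4. There 9 expressed Zfp genes lie within 2.34 Mb (GRCm38, chromosome 4 from 145510759 to 147849126), in a region known for KRAB zinc finger genes that repress retroelements in mouse ESCs. Of these 9, 5 fell in KO cells (Zfp981, Zfp982, Zfp985, Zfp979 and Zfp534), where 9.3% of all genes tested and 7.91% of those on chromosome 4 were lower. Summed over all 9, the level was 330 and 284 CPM in KO cells, against 487 and 610 CPM in WT cells, with a median log2 fold change of -0.91. The region was named after its values were known. Zfp981 and Zfp982, and the uncalled Zfp980, also reached the minimum of 100 counts only through WT. The count and the sums of the region are thus a description.

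Zfp981 had 5.18 and 6.28 CPM in the KO libraries, and 63.7 and 70.1 CPM in the WT libraries. This log2 fold change of -3.55 was the lowest of all 167 (SE 0.37, edgeR adjusted p = 2.21e-11), from 15 and 12 reads in KO cells against 151 and 92 in WT cells. Zfp985 had 23.5 and 15.7 CPM in KO and 72.9 and 119 CPM in WT, a change of -2.24 (SE 0.28, adjusted p = 9.21e-09). In both genes every KO library lay well under every WT library, and both calls were kept whichever library was left out, at -3.66 to -3.40 for Zfp981 and -2.59 to -1.87 for Zfp985.

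Zfp982, Zfp979 and Zfp534 fell less. Zfp982 had 13.1 and 9.94 CPM in KO cells, against 34.1 and 25.1 CPM in WT cells (-1.36, SE 0.40, edgeR adjusted p = 0.0106). Zfp979 had 69.0 and 53.4 CPM in the KO libraries, and 99.1 and 135 CPM in the WT libraries (-0.91, SE 0.22, adjusted p = 0.00156). Zfp534 had 28.3 and 18.3 CPM in KO and 39.2 and 57.1 CPM in WT (-1.003, SE 0.32, adjusted p = 0.0187). The groups did not overlap in any of the 3, but each call was lost without either of 2 libraries. Zfp982 was at -1.18 without KO replicate 2 and -1.09 without WT replicate 1 (adjusted p = 0.102 and 0.155), Zfp979 at -0.73 without KO replicate 2 and -0.69 without WT replicate 2 (adjusted p = 0.0885 and 0.0587), and Zfp534 at -0.73 and -0.73 without the same libraries (adjusted p = 0.237 and 0.19). DESeq2 did not call Zfp982 and Zfp534 (adjusted p = 0.0632 and 0.0941).

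The other 4 genes of the region did not pass the test. Zfp990 and Zfp980, at the centromeric side, were at -0.37 and -0.27, and Zfp984 and Zfp933, at the telomeric side, at 0.12 and 0.76 (edgeR adjusted p = 0.289, 0.777, 0.784 and 0.213). Zfp984 had 105 and 74.3 CPM in KO cells, against 74.6 and 93.7 CPM in WT cells, overlapping groups, whereas both KO libraries of Zfp933 were above both WT libraries. The low values therefore stood in the middle of the run. The 4 other genes tested inside the span had a median of -0.12. In the 2 Mb before it 4 genes had a median of 0.53, with 1 called higher, and in the 2 Mb after it 29 genes had a median of 0.21, with 2 called higher and 1 lower.

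**Figure D2:**
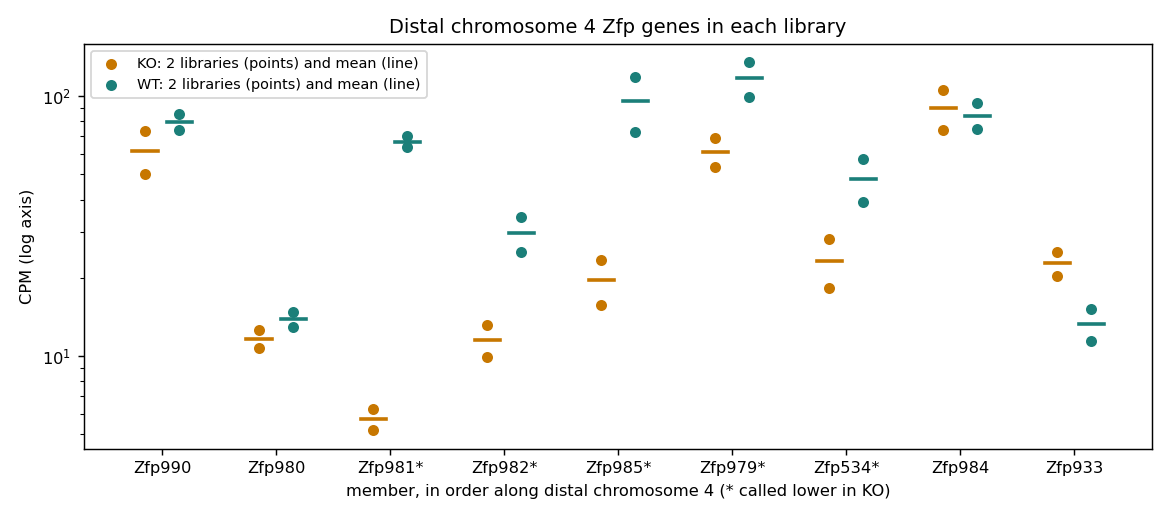
CPM on a log axis of the 9 expressed Zfp genes of distal chromosome 4, in order along the chromosome, with 2 KO libraries left and 2 WT libraries right of each name and lines at the means; asterisks mark genes called lower in KO. Zfp981 lies between 5.18 and 6.28 CPM in KO cells and between 63.7 and 70.1 CPM in WT cells, and at both ends of the run the groups lie closer or KO lies higher.

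Most of these genes have promoters alike in sequence. RefSeq gives windows of 300 bases (250 before and 50 after the start, GRCm38.p6) for 8 of the 9, all except Zfp990. The 3 printed here belong to the called copies with the smallest fall (Zfp979) and the 2 deepest (Zfp985 and Zfp981), on the gene's own strand, 5′ to 3′; capitals in Zfp985 and Zfp981 mark the bases that differ from, or have no partner in, Zfp979 when aligned. Zfp979 is at chr4:147642459-147642758 (minus strand), Zfp985 at chr4:147553027-147553326 (plus strand) and Zfp981 at chr4:146514670-146514969 (plus strand).
Zfp979: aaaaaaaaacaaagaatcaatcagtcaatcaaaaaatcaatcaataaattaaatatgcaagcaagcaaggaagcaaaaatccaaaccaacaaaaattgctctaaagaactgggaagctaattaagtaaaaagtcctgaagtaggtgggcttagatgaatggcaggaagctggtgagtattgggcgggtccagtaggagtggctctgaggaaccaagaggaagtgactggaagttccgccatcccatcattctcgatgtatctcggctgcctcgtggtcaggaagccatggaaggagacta
Zfp985: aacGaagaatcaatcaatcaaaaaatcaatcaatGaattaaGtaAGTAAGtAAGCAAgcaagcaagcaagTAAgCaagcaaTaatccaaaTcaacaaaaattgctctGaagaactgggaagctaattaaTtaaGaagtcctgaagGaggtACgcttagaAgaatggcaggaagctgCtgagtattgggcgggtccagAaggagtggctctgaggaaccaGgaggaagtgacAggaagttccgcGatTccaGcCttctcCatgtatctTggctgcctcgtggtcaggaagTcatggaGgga
Zfp981: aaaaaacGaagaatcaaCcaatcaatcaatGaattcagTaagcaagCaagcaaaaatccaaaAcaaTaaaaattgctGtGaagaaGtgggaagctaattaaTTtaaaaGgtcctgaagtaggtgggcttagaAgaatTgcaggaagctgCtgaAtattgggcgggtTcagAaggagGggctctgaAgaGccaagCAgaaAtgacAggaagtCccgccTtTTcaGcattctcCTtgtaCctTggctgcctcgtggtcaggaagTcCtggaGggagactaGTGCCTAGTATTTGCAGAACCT
Zfp985 carried 40 such capitals and Zfp981 60. The Zfp979 window lay wholly inside an RCOR2 peak (chromosome 4 from 147642359 to 147643098, 3.65-fold over control). A peak of 3.53-fold covered 172 bases of the Zfp985 window, and no peak overlapped that of Zfp981.

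Identity to the Zfp979 window was 91.3% for Zfp980, 89.7% for Zfp982, 86.7% for Zfp985, 80% for Zfp981, 79.3% for Zfp534 and 74.7% for Zfp984, but 57.3% for Zfp933. The value of Zfp982 is that of the best of its 3 windows, and the other 2 were at 56.3% and 56.7%. Across 136 expressed Zfp genes outside the region, with only the first window of each compared, the median was 56% and the highest 60.7%. Zfp980, the closest to Zfp979, was not called. No source used here says how reads shared by such copies were counted, which leaves the values of single copies uncertain, and the interval of Zfp981 overlaps that of the protein-coding Zfp993. The placing of ChIP reads among these copies was not tested either, so their RCOR2 peaks carry the same doubt.

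**Figure D3:**
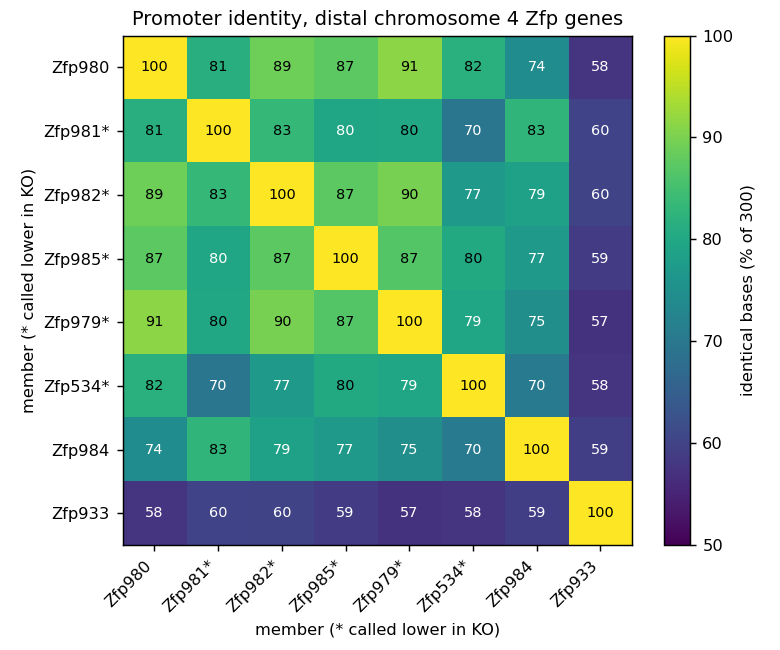
Percent of identical bases between the promoter windows of 8 Zfp genes of distal chromosome 4 (colour scale 50 to 100), with asterisks on genes called lower in KO. Zfp982 has 3 windows, and the best match of them is shown. Zfp979 and Zfp980 share 91.3% and Zfp979 and Zfp982 89.7%, while the row of Zfp933 stays near 60.

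Outside that region the deepest fall was in Zfp809, whose protein binds the primer binding site of murine leukemia virus-like elements and brings TRIM28 there to silence them in ESCs. Zfp809 had 4.83 and 2.09 CPM in the KO libraries, and 20.2 and 27.4 CPM in the WT libraries, from 14 and 4 reads in KO cells against 48 and 36 in WT cells. The groups did not overlap, and the log2 fold change was -2.68 (SE 0.56, edgeR adjusted p = 0.000241), with -3.45 to -2.26 when 1 library was left out. Its interval overlaps that of Zfp599, and strand use in counting is not given. An RCOR2 peak lay over its start (GRCm38, chromosome 9 from 22225492 to 22226161, 5.98-fold over control with a -log10 q of 9.00). The promoter window, shown because the gene fell and carries this peak, is at chr9:22225453-22225752 (plus strand), and capitals mark a match to the YY1 motif GCCATNTT.
Zfp809: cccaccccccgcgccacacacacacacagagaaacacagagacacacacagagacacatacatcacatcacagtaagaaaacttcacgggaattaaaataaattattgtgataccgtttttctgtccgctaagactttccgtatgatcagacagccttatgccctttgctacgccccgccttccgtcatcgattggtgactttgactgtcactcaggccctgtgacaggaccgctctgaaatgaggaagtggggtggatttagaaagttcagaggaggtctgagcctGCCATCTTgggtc

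On chromosome 5, Zfp33b and Zfp951 lie near each other (104570575 to 104584620 and 104802246 to 104860157) and went opposite ways. Zfp33b had 24.2 and 24.1 CPM in KO and 4.64 and 11.4 CPM in WT, groups that did not overlap, and rose by 1.68 (SE 0.48, edgeR adjusted p = 0.00859). Zfp951 had 1.73 and 9.94 CPM in KO cells, against 18.5 and 28.2 CPM in WT cells, groups that did not overlap although the KO libraries differed several-fold, and fell by 2.08 on the log2 scale (SE 0.56, adjusted p = 0.00457). Single libraries moved both values: Zfp951 was at -1.20 without KO replicate 1 (adjusted p = 0.179) and -3.68 without KO replicate 2, and Zfp33b at 1.09 without WT replicate 1 and 1.66 without KO replicate 1 (adjusted p = 0.158 and 0.0725). DESeq2 did not call Zfp33b (adjusted p = 0.0569).

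Zfp512 and Zfp428 fell and kept their calls whichever library was left out (-1.98 to -1.73 and -1.11 to -0.90) and in every other setting run. Zfp512, on chromosome 5 from 31452421 to 31481754, had 14.5 and 14.1 CPM in the KO libraries, and 47.6 and 57.1 CPM in the WT libraries (-1.86, SE 0.33, edgeR adjusted p = 2.23e-05). Zfp428, on chromosome 7 from 24504548 to 24515682, had 116 and 121 CPM in KO and 255 and 225 CPM in WT (-1.02, SE 0.17, adjusted p = 8.08e-06). The replicates of each group lay close together in both genes. With Zfp981, Zfp985 and Zfp809 they made up the 5 of 23 calls that held in every refit; Zfp981 and Zfp809 are among the genes that reached the minimum only through WT.

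Zfp428 carried a wide RCOR2 peak over its RefSeq start (chromosome 7 from 24506766 to 24507829, 8.73-fold, -log10 q 19.4), which lies inside the gene interval and so was not counted among summits near its ends; it was singled out after its values were seen. The window at chr7:24506837-24507136 (plus strand) lies wholly in this peak and holds 2 copies of the octamer ATGCAAAT, in capitals, a motif added after this sequence was read. The octamer, bound by POU factors, was found on either strand in any window of 3.47% of 144 Zfp genes and 1.63% of tested genes with a window.
Zfp428: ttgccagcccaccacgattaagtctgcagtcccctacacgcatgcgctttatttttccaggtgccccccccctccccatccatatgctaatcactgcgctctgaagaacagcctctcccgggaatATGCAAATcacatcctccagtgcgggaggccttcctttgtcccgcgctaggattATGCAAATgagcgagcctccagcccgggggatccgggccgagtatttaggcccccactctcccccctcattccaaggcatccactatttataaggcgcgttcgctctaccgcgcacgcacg

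The remaining falls were smaller. Zfp944 in the chromosome 17 cluster had 44.2 and 30.9 CPM in KO cells, against 73.8 and 70.1 CPM in WT cells (-0.92, SE 0.26, edgeR adjusted p = 0.00691). Zfp444 was at -0.94 and Zfp574 at -0.82, both on chromosome 7 (adjusted p = 0.041 and 0.0219). Zfp830, needed for survival of the inner cell mass, was at -0.67, and Zfp326, whose human counterpart couples transcript elongation to splicing, at -0.59 (adjusted p = 0.0221 and 0.0476). KO libraries lay below WT libraries in all of these, but each call was lost in some setting. Without KO replicate 2 or WT replicate 1, Zfp944 was at -0.69 and -0.87 (adjusted p = 0.177 and 0.0537). The call of Zfp444 was lost without KO replicate 1 (-1.10), KO replicate 2 (-0.81) or WT replicate 2 (-0.64). Those of Zfp574 and Zfp326 were lost whichever library was left out, at -0.82 to -0.80 and -0.84 to -0.35. Zfp830 lies on chromosome 11, was at -0.19 after centring (adjusted p = 0.656) and was also lost without KO replicate 1, KO replicate 2 or WT replicate 2 (-0.78 to -0.57 over the libraries left out). Its interval overlaps that of Cct6b, and the interval of Zfp574 that of Grik5.

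Of the 9 genes called higher, 7 lie on the shifted chromosomes 3, 6 and 8. On chromosome 6, Zfp777 had 17.3 and 20.4 CPM in the KO libraries, and 5.48 and 7.62 CPM in the WT libraries (1.55, SE 0.53, edgeR adjusted p = 0.0294). Zfp775 had 32.1 and 36.6 CPM in KO and 14.3 and 10.7 CPM in WT (1.42, SE 0.38, adjusted p = 0.0045). Zfp746, which encodes PARIS, a repressor of Ppargc1a that is degraded through parkin, was at 1.13 and Zfp800 at 1.09 (adjusted p = 0.0461 and 0.0116). Zfp638, whose human counterpart NP220 silences unintegrated retroviral DNA with the HUSH complex, had 242 and 201 CPM in KO cells, against 146 and 143 CPM in WT cells (0.62, SE 0.17, adjusted p = 0.00668). KO lay above WT in every library of these 5 genes. After centring on chromosome 6 they were at 0.63, 0.50, 0.21 and 0.17, and Zfp638 at -0.30, the opposite direction, with none called. Zfp746 also lost its call without any 1 of the libraries (0.90 to 1.33), Zfp777 without KO replicate 1 (1.66), KO replicate 2 (1.44) or WT replicate 1 (1.31), Zfp800 without KO replicate 1 (0.84) or WT replicate 2 (0.88), and Zfp638 without KO replicate 1 (0.47).

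Zfp704 on chromosome 3 had 87.0 and 108 CPM in the KO libraries, and 44.7 and 43.4 CPM in the WT libraries, a change of 1.14 (SE 0.24, edgeR adjusted p = 0.00022) that kept its call without any single library and stood at 0.66 after centring (adjusted p = 0.0505). Zfp1 on chromosome 8 was at 0.94 and at 0.42 centred (adjusted p = 0.0246 and 0.427), and its call was lost without KO replicate 1 (0.79), WT replicate 1 (1.04) or WT replicate 2 (0.88). Only Zfp33b and Zfp936 rose off the shifted chromosomes. Zfp936, in a cluster on chromosome 7, had 58.3 and 64.4 CPM in KO and 33.7 and 39.6 CPM in WT (0.75, SE 0.27, adjusted p = 0.0399), groups apart in every library, but the call was lost when any 1 library was left out (0.64 to 0.86) and in DESeq2 (adjusted p = 0.141).

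**Figure D4:**
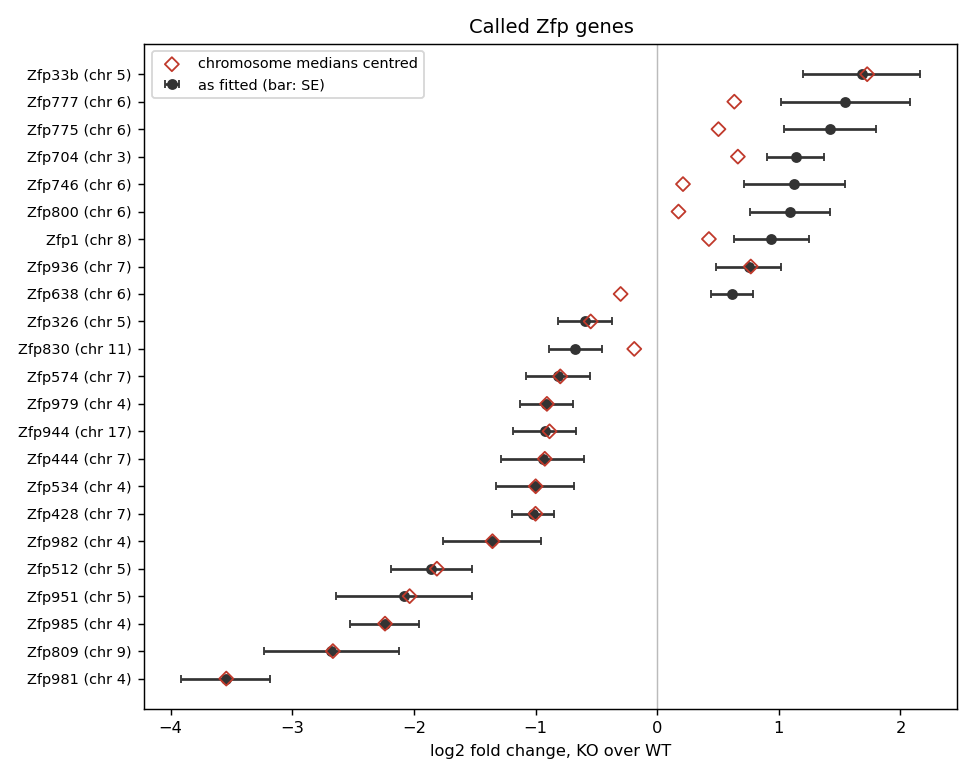
Log2 fold change, KO over WT, with its SE for the 23 called Zfp genes (filled), and the value after centring on the median of all genes of the chromosome (open diamonds). The genes of chromosomes 3, 6, 8 and 11 move towards 0, Zfp638 passes it to -0.30, and the others stay in place.

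Genomic clusters were taken as 3 or more expressed Zfp genes with gaps of at most 500 kb. The 12 clusters held 67 genes, of which 3 were called higher and 5 lower, with a median of -0.18; the 100 genes outside had 6 higher and 9 lower and a median of -0.16, beside 10.4% higher and 9.3% lower of all genes. The largest, 13 genes on chromosome 17 from 21008941 to 22867309, had a median of -0.04 with Zfp944 alone called. The cluster of 9 genes on chromosome 7 (29768552 to 30169775) had a median of -0.29, the 7 genes on chromosome 17 from 32765496 to 33631716 of -0.34 and the 6 on chromosome 13 from 67405033 to 67729178 of -0.28, none of them called. In all, 8 clusters with 39 genes had no call by edgeR, DESeq2 or limma-voom, and 5 of the 39 had an unadjusted edgeR p under 0.05. These clusters were grouped because edgeR called none of their genes, so the lack of edgeR calls follows from the choice. Of the 167 Zfp genes, 40 had such an unadjusted p. The shares of all genes with such a p, or called by limma-voom, are not given here. In a cluster of 6 on chromosome 7 (42473386 to 43618279) 5 genes were below 0, with a median of -0.36, and Zfp936 was the exception.

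The cluster on chromosome 4 from 147443114 to 147849126, with 6 of the 9 distal genes, was the only one with more than 2 calls, 4 of 6 lower, and had the lowest median, -0.96. Of all genes tested 9.3% were lower, and of those on chromosome 4 7.91%. The 4 calls are those already described for the distal region, which was named after its values were known, and are not a second result. Zfp982, among these 4, reached the minimum only through WT. With gaps of up to 1 Mb the cluster takes in all 9, with a median of -0.91. The cluster of 3 on chromosome 6 (47920568 to 48086986, Zfp212, Zfp777 and Zfp746) had the highest, 1.13, and 0.21 after centring on its chromosome.

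KRAB zinc finger proteins with a known role made up 6 of the 167, and only Zfp809 among them was called. Of all genes tested, 10.4% were higher and 9.3% lower, and Zfp809 reached the minimum only through WT. The imprint protectors Zfp57 and Zfp445 were at 0.15 and 0.57, and Zfp568, which represses a placental Igf2 transcript, had 251 and 296 CPM in KO cells, against 206 and 215 CPM in WT cells (0.38, SE 0.16, edgeR adjusted p = 0.0945). KO lay above WT in all libraries of Zfp568 without passing the test. Zfp819 was at -0.32 and Zfp110, a partner of the neurotrophin receptor p75, at 0.24, and the adjusted p of Zfp57, Zfp445, Zfp819 and Zfp110 ran from 0.195 to 0.792.

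Factors of ESC and chromatin regulation made up 13, and none was called by edgeR, DESeq2 or limma-voom on all 4 libraries with no centring. Of all genes, edgeR called 10.4% higher and 9.3% lower, and DESeq2 6.35% and 4.94%, so 13 genes are few to judge by. Of the 13, 2 had an unadjusted edgeR p under 0.05, where 40 of the 167 Zfp genes did. The shares of all genes with such a p, or called by limma-voom, are not given here. Centring on chromosome 8 called Zfp827 lower (-1.23, adjusted p = 0.0182). Zfp217 and Zfp516, whose human counterparts are found with CoREST and LSD1, were at -0.05 and 0.23. Zfp281, a partner of NANOG and POU5F1, was at 0.11, Zfp143, which binds promoters including that of Nanog, at -0.28, Zfp322a at 0.22 and Zfp296, a partner of NuRD, at -0.47. Zfp462, which guards heterochromatin in ESCs, was at -0.36, and Zfp644, a partner of the H3K9 methyltransferases G9a and GLP, at 0.59 (adjusted p = 0.0969). Zfp532 was at -0.51, Zfp410, which activates Chd4, at 0.33, Zfp148 at -0.28 and Zfp827 at -0.71. Zfp592 had 29.7 and 8.37 CPM in the KO libraries, and 9.70 and 9.14 CPM in the WT libraries: 1 KO library stood above the other 3, the change of 1.05 (adjusted p = 0.139) became -0.17 without it, and without KO replicate 2 it was 1.66 (adjusted p = 0.02).

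Proteins of RNA, ribosome, spindle and protein modification made up 10, with Zfp638 called higher and Zfp326 lower, near the 10.4% and 9.3% of all genes. Zfp207, whose human counterpart BuGZ serves the spindle and splicing, had 210 and 187 CPM in KO and 226 and 245 CPM in WT, and was at -0.24 (SE 0.16, edgeR adjusted p = 0.332), or 0.24 centred on chromosome 11. Zfp622 and Zfp593, whose yeast counterparts mature the large ribosomal subunit, were at -0.37 and -0.11, Zfp91, a ubiquitin ligase in human cells, at -0.04, Zfp451, a SUMO ligase in human cells, at -0.42, the double-stranded RNA binder Zfp346 at -0.28, Zfp318, which shapes splicing of immunoglobulin transcripts in B cells, at -0.40 and the RNA binder Zfp106 at 0.04. Zfp106 held 3290 counts, the most of all 167, so its small change was also among the best measured (SE 0.15).

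Of 20 partners of KRAB zinc finger silencing in the table, 19 were tested, 3 were called higher and 1 lower, where 10.4% and 9.3% of all genes were. Setdb1, the H3K9 methyltransferase, had 26.9 and 53.9 CPM in KO cells, against 19.0 and 9.14 CPM in WT cells (1.43, SE 0.38, edgeR adjusted p = 0.00404). Its groups did not overlap, but the call was lost without KO replicate 2 (0.89, adjusted p = 0.269) and after centring on chromosome 3 (0.95, adjusted p = 0.0863). Cbx3, an HP1 protein that binds methylated H3K9, was at 0.77 and the remodeller Smarcad1 at 0.68 (adjusted p = 0.000393 and 0.0219); after centring on chromosome 6, which holds both, they were at -0.14 and -0.24. Smarcad1 was also lost in DESeq2 (adjusted p = 0.105) and without KO replicate 1 (0.54), KO replicate 2 (0.80) or WT replicate 1 (0.43), and Cbx3 without KO replicate 1 (0.51). Morc3, an ATPase that restrains endogenous retroviruses, had 154 and 173 CPM in the KO libraries, and 309 and 368 CPM in the WT libraries and fell by 1.05 on the log2 scale (SE 0.16, adjusted p = 1.5e-06), a call kept in every setting. Trim28 itself had 266 and 262 CPM in KO and 349 and 332 CPM in WT, lower in both KO libraries but not called (-0.37, SE 0.15, adjusted p = 0.0824). The HP1 genes Cbx1 and Cbx5 were at -0.29 and 0.16, and Chd4 and Atf7ip, both on chromosome 6, at 0.38 and -0.67, uncalled until centring put them at -0.54 and -1.59 (adjusted p = 0.006 and 0.000429).

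The share of Zfp genes with an RCOR2 summit nearby was close to that of all expressed genes. In the authors' list of 53366 peaks on chromosomes, called on merged libraries, 115 of the 167 genes had a summit within 1 kb of an end of the gene (68.9%, Wilson 95% interval 61.5 to 75.4), against 67.3% (66.4 to 68.2) of 10215 tested genes with a position. Summits numbered 160, with 39 genes having 2 or more. Where the strand was known, the best summit lay at the 5′ end in 97 of 99 genes. The median -log10 q of the best summit was 5.16, against 5.89 for all tested genes, 15 genes reached 10, and 49 were under 5. These folds and q values are the authors' own for each peak.

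The strongest was at Zfp729b, 9.64-fold with a -log10 q of 22.6 (chromosome 13 from 67609520 to 67610136), followed by Zfp346 at 19.4, Zfp74 at 17.4, Zfp664 and Zfp7 at 15.4 each and Zfp672 at 14.4. Beyond 1 kb of the gene's ends, the peak at the start of Zfp428, a called gene, also reached 19.4. None of the 6 genes with the strongest summits was called by edgeR, DESeq2 or limma-voom, and none had an unadjusted edgeR p under 0.05. Of the 167 Zfp genes, 40 had such an unadjusted p. The shares of all genes with such a p, or called by limma-voom, are not given here. Of all genes tested, edgeR called 10.4% higher and 9.3% lower, so 6 genes are too few to tell their share from it. Zfp729b had 27.6 and 29.8 CPM in KO cells, against 36.7 and 29.7 CPM in WT cells, overlapping groups, and a change of -0.23 (SE 0.32, edgeR adjusted p = 0.7). Zfp74 had 15.9 and 16.2 CPM in the KO libraries, and 28.7 and 24.4 CPM in the WT libraries, with KO below WT in each (-0.73, SE 0.38, adjusted p = 0.186). Zfp346, Zfp7 and Zfp672 were at -0.28, -0.36 and -0.45 and Zfp664 at 0.13. The promoter window of Zfp346, shown as the strongest of these 6 with a RefSeq window, is at chr13:55105059-55105358 (plus strand), and capitals mark 3 GC boxes, read here as the reverse complement of GGGCGG.
Zfp346: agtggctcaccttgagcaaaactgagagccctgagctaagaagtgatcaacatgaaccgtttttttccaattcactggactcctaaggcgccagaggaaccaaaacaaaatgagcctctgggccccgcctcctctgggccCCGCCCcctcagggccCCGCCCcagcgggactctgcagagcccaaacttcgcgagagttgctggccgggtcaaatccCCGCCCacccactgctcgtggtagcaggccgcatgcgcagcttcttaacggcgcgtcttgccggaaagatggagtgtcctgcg

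Genes with a summit lay slightly lower than those without, a median of -0.24 against -0.04, where all tested genes had -0.02 with and -0.00 without. By overlap of a peak with the promoter window the medians were closer, -0.23 with and -0.16 without. Of the 115 with a summit, 4 were called higher and 10 lower, and of the 52 without, 5 and 4. This split rests on the ends of the gene interval. Of the 5 higher without such a summit, Zfp800, Zfp777, Zfp936 and Zfp638 had a peak over their promoter window. Their -log10 q was 9.00, 7.42, 6.49 and 3.79. Conversely, Zfp981, Zfp951, Zfp775 and Zfp1 were called and had a summit, but no peak over their window. Among all tested genes, 10.6% with a summit were higher and 9.15% lower, and 9.77% and 9.68% without. The difference between Zfp genes with and without a summit was not tested. Of the 5 genes that fell on distal chromosome 4, Zfp979 (10.4), Zfp982 (8.46), Zfp981 (5.68) and Zfp985 (4.39, each a -log10 q) had a summit. Zfp534 had none, and 67.3% of all tested genes had one. The folds of these 4 summits were low, at 3.65, 3.78, 3.66 and 3.53 in the order given. The median fold of the best summit was 4.61 over the Zfp genes with one. How ChIP reads were placed among the near-identical copies was not tested, so these summits may not be specific to a single copy. The summit of Zfp981, at 146502152, lay near the edge of its interval and ahead of its promoter window, which starts at 146514670. No peak overlapped that window.

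**Figure D5:**
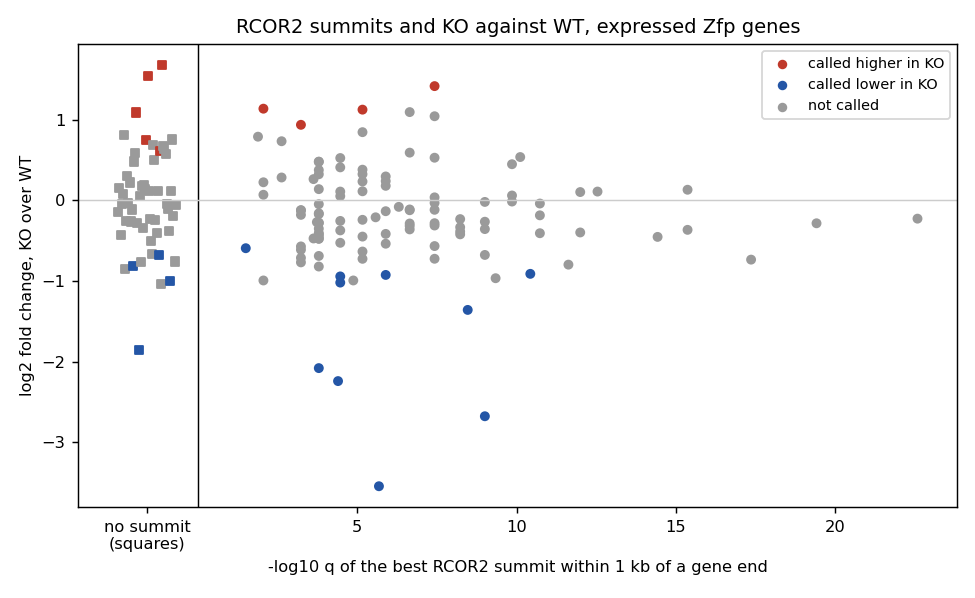
Log2 fold change, KO over WT, against the -log10 q of the best RCOR2 summit within 1 kb of a gene end for 115 Zfp genes (points), and the 52 genes without a summit at left (squares, spread sideways for visibility). Called genes lie among both. The 6 strongest of these summits, at 14.4 to 22.6, belong to genes that were not called. Among all genes tested, 10.4% were called higher and 9.3% lower. The peak of 19.4 at the RefSeq start of the called Zfp428 lies farther from the gene's ends and is not shown. Among the squares, the called Zfp800, Zfp777, Zfp936 and Zfp638 had a peak over their RefSeq promoter window.

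Motif content of the promoter windows was counted on both strands over 144 Zfp genes and 8198 tested genes, the Zfp genes among them; the difference in share was not tested. A gene counted when any of its windows held the motif. The GC box GGGCGG was in 52.1% of Zfp genes and 71.2% of all, the YY1 motif GCCATNTT in 19.4% and 11.2%, and the ETS motif CCGGAAG in 23.6% and 22.1%. The NRF1 motif was in 4.86% and 2.65%, the CRE TGACGTCA in 3.47% and 3.98%, and the GFY motif, bound with ZFP143, in 2.78% and 0.854%. The left part of the REST site, TTCAGCACC, was in none of the Zfp genes and in 0.415% of all. Of the called genes, Zfp809, Zfp936, Zfp326 and Zfp830 held the YY1 motif, and 14 of the 21 with a window held a GC box, 9 of them called lower and 5 higher. A peak overlapped the window in 82 of 144 Zfp genes (56.9%), against 52.4% of 8267 tested genes. These matches are letters in a window and were not tested for binding.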

How the data were processed

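For 2 KO and 2 WT libraries the authors deposited unnormalized counts for each gene symbol. Tools listed without their role in the submitters' processing notes are STAR 2.5.2b, featureCounts, Subread, Bowtie2 2.3.4.1, MACS2 2.1.1.20160309, Trimmomatic 0.36, SAMtools 1.8, bedtools 2.25.0 and HOMER, with GRCm38 and mm10. The handling of strand, molecular identifiers and shared reads in counting was not given in the sources used here. In the RCOR2 list, deposited by the authors on merged libraries, each peak has a fold enrichment (ratio over control) and a −log10 q value.

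Genes were filtered with filterByExpr, scaled by TMM and tested with edgeR 4.0.16 (R 4.3.3) by the two-sided quasi-likelihood test, Benjamini-Hochberg adjusted over 10241 genes, at 0.05; the fit was tested on simulated data. The SE came from the fold change and its F statistic, and CPM are per 1000000 TMM-scaled counts. DESeq2 1.42.0 and limma-voom (limma 3.58.1) were alternatives. Replicates differed by more than sampling noise (chi-square over degrees of freedom 4.36 in KO and 4.94 in WT). Wilson intervals cover counting error only.

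Gene intervals came from RefSeq GRCm38.p6, as did promoter windows for 144 of 167 genes, with their strand. Members, lists and tests were chosen with earlier results of these data known. Named genes were the 12 largest called changes in each direction, all members of 3 role lists, the 6 strongest summits, the 3 genes on each side of the minimum, called members of clusters of 5 or more, and called partner genes. The pull-downs of the Nanog locus and ATAC-seq were not used here.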

Additional observations from a re-analysis of the deposited data

How the results depend on the processing

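Fold changes of the Zfp genes kept their direction in most settings, and the count of calls did not. Of the 23 calls, 5 were kept in every refit (Zfp981, Zfp985, Zfp512, Zfp428 and Zfp809) and 18 were lost in at least 1. Among genes that reach the minimum at the level of their lower group, also chosen after seeing the data, 6 were higher and 10 lower. Zfp981 and Zfp809 are not among these genes. Of all genes tested, 10.4% were higher and 9.3% lower. The 9 calls of a higher level became 3 in DESeq2, 2 with chromosome medians centred, 2 without the genes of chromosomes 3, 6, 8 and 11, 2 among genes off those chromosomes (an alternative chosen after seeing the data) and 2 to 7 when 1 library was left out. The 14 calls of a lower level became 8 in DESeq2 and 6 to 12 when 1 library was left out. Of the 9 called higher, 7 lie on chromosomes 3, 6 and 8, so leaving out the genes there removed these 7 whatever the refit gave. The median of -0.17 ranged from -0.2075 to -0.0835 when 1 library was left out. Partner genes called higher, 3 at first, were 0 with centring, 0 without those chromosomes and 1 to 4 when 1 library was left out; the 1 called lower became 3 with centring, 2 with library size alone and 1 to 3 when 1 library was left out. The 3 partner genes called higher lie on chromosomes 3 and 6, so the loss of these 3 without those chromosomes was fixed in advance. Centring reversed Zfp638 (-0.30), Cbx3 (-0.14) and Smarcad1 (-0.24), all on chromosome 6, whose median of 0.92 it subtracts. Zfp genes near a summit made up 59.9% within 500 bp, against 57.9% of all tested genes, and 86.8% within 5 kb, against 80.7%. At a -log10 q of at least 5 they made up 39.5%, against 40.8%, and at a fold of at least 5 they made up 26.3%, against 28.7%. By overlap with a promoter window the share was 56.9%, against 52.4%. The share of Zfp genes within 5 kb was thus the higher, and none of these differences was tested. Replicate numbers did not pair the samples (correlation of deviations -0.0532); with the number as a replicate block there were 7 higher and 12 lower, a median of -0.15 and 3 and 1 partner genes, and 4 calls were lost. Other causes of lost calls were not tested, and the share of all genes called when 1 library was left out is not given here. Of the 167 genes, 75 had under 200 counts.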
